A study of Mus musculus with 10 samples.

Results

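The stem cells (SC) of mouse intestinal organoids were the cells that the authors' annotation placed in the class SC in the 8 organoid libraries. They numbered 6065 of 22139 annotated organoid cells, in a series of 25204 annotated cells. The other organoid classes were transit amplifying cells (TA), enterocyte progenitors (EP), enterocytes (EC), goblet cells (GC), enteroendocrine cells (EE), Paneth cells (PC), revival stem cells (RSC, 70 cells) and a class labelled TC (17 cells).

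Intestinal stem cells sit at the crypt base between Paneth cells, divide often, and give rise to transit amplifying cells that differentiate as they move up the crypt. They are kept by Wnt signals, which R-spondins strengthen through Lgr5 and its relatives, by Notch signals from neighbouring Paneth cells and by EGF, while BMP signals oppose them. After injury, epithelial cells can take on a regenerative state with fetal and YAP-driven genes and can refill the stem cell pool.

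The organoids were grown in Matrigel from crypts of the proximal small intestine of mice. The medium of the ENR-organoids (3 libraries) held EGF, Noggin (a BMP antagonist) and R-Spondin 1. That of the Hyper-organoids (3 libraries) held LDN193189 (a BMP receptor inhibitor), GSK-3 Inhibitor XV (which mimics Wnt signalling), Pexmetinib (a p38 and Tie2 inhibitor), valproic acid (VPA, a histone deacetylase inhibitor), EPZ6438 (which blocks EZH2, the Polycomb histone methyltransferase), EGF, R-Spondin 1 conditioned medium and FGF2. For the -VE-organoids (2 libraries) VPA and EPZ6438 were left out of the Hyper medium. Replicates 1 and 2 of the Hyper- and -VE-organoids were derived from ENR-organoids, and replicate 3 of the ENR- and Hyper-organoids from primary crypts. The labels give passages 2, 7 and 3 for ENR replicates 1, 2 and 3, passages 1 and 6 for -VE replicates 1 and 2, and passages 1, 6 and 3 for Hyper replicates 1, 2 and 3. Any pair of media differs in more than 1 component (Hyper and -VE in VPA and EPZ6438 together), so that the effects of single components cannot be told apart. Mice were 6 to 12 weeks old by the study's methods, which do not say which of its mouse lines gave these libraries, and the labels do not tie the libraries to separate mice, so p-values measure the spread between these libraries.

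The stem class held 322, 317 and 229 cells in the ENR-, 674 and 1042 in the -VE- and 1126, 1481 and 874 in the Hyper-organoid libraries. Its summed counts lay between 7636559 and 51917593 unique molecular identifiers (UMIs, 1 per captured transcript molecule), with the lowest depth in the ENR libraries, and median UMIs per cell lay between 31294 and 43892. Of its barcodes, 4 occurred in more than 1 library. TA cells of the same libraries were deeper, with medians between 45149 and 59670 UMIs. Levels are given in CPM, a gene's UMIs relative to all UMIs of the summed stem class with TMM scaling, and a gene was called where edgeR's adjusted p was under 0.05 and the groups differed by 2-fold or more.

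The class carried the markers it is named for, but shared them with TA cells. The markers were Lgr5 (a receptor for R-spondins), Ascl2 (a transcription factor of the crypt base), Olfm4 (a secreted glycoprotein) and Smoc2 (a secreted matricellular protein). SC had the highest level of all classes with at least 20 cells in a library (RSC in 1 library, TC in 0) for Ascl2 in 7, Lgr5 in 6, Olfm4 in 5 and Smoc2 in 3 of the 8 libraries. The ratio of the level in SC to that in TA lay between 0.982 and 1.44 for Lgr5, 0.984 and 1.29 for Ascl2, 0.871 and 1.83 for Olfm4, and 0.881 and 1.11 for Smoc2. Axin2 and Cd44, further Wnt-induced genes of the crypt base, were highest in SC in 0 and 1 libraries. In ENR-organoids, enterocytes held 5.93, 6.45 and 7.22 CPM of Lgr5 against 104, 111 and 88.3 CPM in SC. In Hyper-organoids, goblet cells were close to SC, with 149.8, 131 and 117 CPM of Lgr5 against 161, 163 and 122 CPM. Over 28 stem cell genes, the summed level in TA was 0.677 to 0.738 of that in SC in ENR-, 0.900 to 0.914 in -VE- and 0.949 to 0.965 in Hyper-organoids. Without Olfm4, the most abundant of them in ENR- and -VE-organoids, this share was 0.855 to 0.890, 0.979 to 0.980 and 0.933 to 0.963. The 24 genes of mitosis separated them in all libraries, with 3.04 to 4.54 times the summed level in TA. Since the authors clustered these cells on their expression, these levels are a description with no test.

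**Figure D1:**
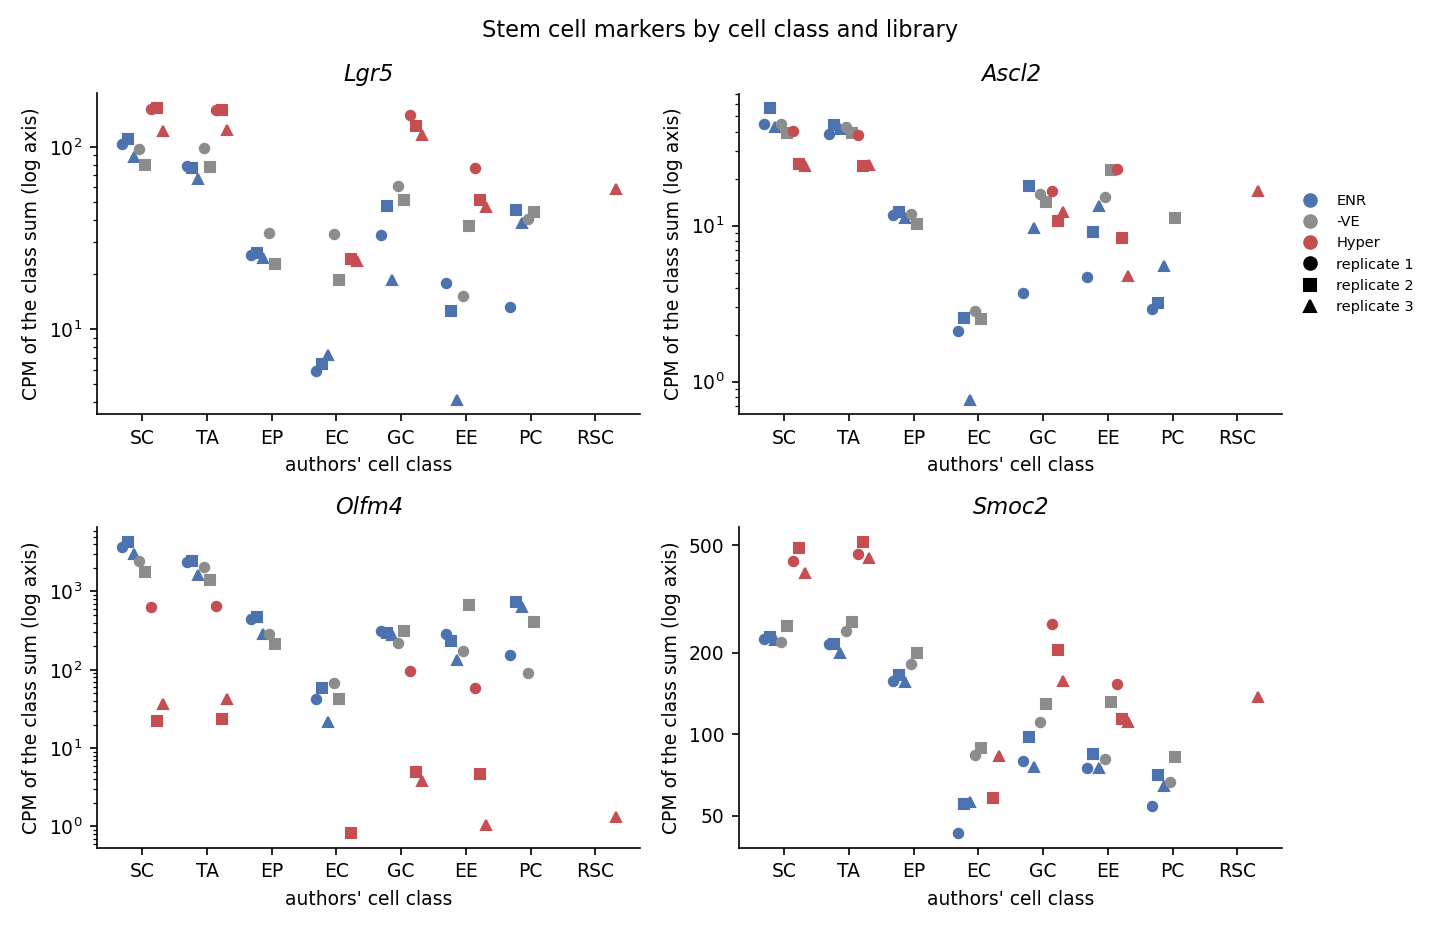
Level of the 4 markers (vertical log axis, CPM of the summed class) in each annotated class (horizontal axis) and library. Colours mark ENR-, -VE- and Hyper-organoids and symbols the replicate, classes with under 20 cells in a library are left out, and a level of 0 cannot be drawn. Lgr5 in SC lies between 79.8 and 163 CPM, and Olfm4 is lower in Hyper- than in ENR-organoids in both SC and TA.

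Between the media, the stem class of Hyper-organoids stood apart from both others. Of 13920 genes tested within SC, 2509 were called between Hyper- and ENR-organoids, which is 18%. Of these 2119 (15.2%) were higher and 390 (2.8%) lower in Hyper-organoids. Against -VE-organoids 2296 genes (16.5%) were called, 2051 (14.7%) higher and 245 (1.76%) lower. Between -VE- and ENR-organoids 70 genes (0.503%) were called, 32 (0.23%) higher and 38 (0.273%) lower, and this count moved between 8 and 149 when single libraries were left out, with 8 without ENR replicate 1, 17 without -VE replicate 2 and 149 without Hyper replicate 1. The median difference over all genes was at most 0.0130 on the log2 scale in the 3 comparisons. The typical gene differed by 0.359 to 0.408 (median absolute log2 difference) between an ENR and a Hyper library, by 0.175 to 0.248 between an ENR and a -VE library, and by 0.124 to 0.192 between ENR libraries. The libraries of the 2 groups did not overlap for 58.2% of genes in Hyper against ENR, 66.5% in Hyper against -VE and 37% in -VE against ENR. Groups of 3 and 2 libraries fail to overlap by chance more often than groups of 3 and 3. The shares with -VE can therefore not be ranked against that of Hyper against ENR. The 3 comparisons share libraries and are not independent.

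Among the 28 stem cell genes, 5 were called higher and 1 lower in Hyper- than in ENR-organoids, a share close to that of all genes tested, with a median log2 fold change of 0.13. At any fold, 13 passed the adjusted p of 0.05 as higher and 6 as lower, beside 26.1% and 23.4% of all genes. The genes went apart: Fstl1, Tnfrsf19, Igfbp4, Bmi1 and Mex3a were called higher and Olfm4 lower, while Lgr5, Smoc2 and Ascl2 moved by less than 2-fold.

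Lgr5 (chr10:115450311-115587780 in GRCm38, minus strand) stood at 105, 113 and 93.6 CPM in ENR-, 102 and 81.1 in -VE- and 152, 155 and 118 in Hyper-organoids. The Hyper libraries were above all others, by less than 2-fold (log2 fold change 0.44, SE 0.125, edgeR adjusted p 0.015 against ENR). Smoc2 (chr17:14279506-14404790) stood at 229, 233 and 236 CPM in ENR-, 228 and 255 in -VE- and 412, 462 and 382 in Hyper-organoids, and the Hyper libraries again lay above all others (log2 fold change 0.85, SE 0.0779, edgeR adjusted p 3.38e-05). Ascl2 (chr7:142966829-142969264, minus strand) moved the other way, with 45, 57.7 and 45.2 CPM in ENR-, 46.6 and 39.9 in -VE- and 38, 23.4 and 23.3 in Hyper-organoids (log2 fold change -0.81, SE 0.192, edgeR adjusted p 0.00684). It stayed under the 2-fold limit with all libraries, and without Hyper replicate 1 it was called at -1.05, as were Aqp4 at -1.14 and Rgmb at -1.32.

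Olfm4 (chr14:79984081-80023139) had 3782, 4421 and 3159 CPM in ENR-, 2555 and 1799 in -VE- and 593, 20.9 and 35.4 in Hyper-organoids. Hyper replicate 1, at passage 1, kept a level between those of the -VE libraries and the other Hyper libraries, and the groups did not overlap. The fall was called against ENR (log2 fold change -4.13, SE 1.09, edgeR adjusted p 0.0111) and against -VE (log2 fold change -3.33, SE 1.1, edgeR adjusted p 0.0333). Against -VE the call was lost without any 1 of 6 libraries, with adjusted p up to 0.0987 and a log2 fold change between -2.77 and -6.25 over the alternatives. After each cell was thinned to 10000 UMIs, Olfm4 was found in 98.4, 97.8 and 94.3% of ENR, 95.3 and 90.3% of -VE and 76.3, 8.28 and 11.7% of Hyper stem cells. Within a cell of ENR replicate 1 the median was 32 Olfm4 UMIs per 10000, against 4 in Hyper replicate 1 and 0 in Hyper replicates 2 and 3.

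The 5 stem cell genes that rose were Fstl1, Tnfrsf19, Igfbp4, Bmi1 and Mex3a. Tnfrsf19 (Troy, a receptor that marks Lgr5+ cells) had 0.705, 1.49 and 1.25 CPM in ENR-, 2.75 and 4.74 in -VE- and 30.7, 18 and 13.1 in Hyper-organoids (log2 fold change 4.19, SE 0.443, edgeR adjusted p 7.60e-05). Fstl1, a secreted follistatin-like protein, had 1.1, 0.909 and 0.556 CPM in ENR-, 0.938 and 0.108 in -VE- and 25.4, 17.2 and 10.6 in Hyper-organoids (log2 fold change 4.3, SE 0.554, edgeR adjusted p 0.000232). Igfbp4, a secreted binder of insulin-like growth factors, also separated -VE- from ENR-organoids. It had 76.6, 70.5 and 63.1 CPM in ENR-, 157 and 244 in -VE- and 278, 346 and 267 in Hyper-organoids, and was called in Hyper against ENR (2.08) and in -VE against ENR (1.51, edgeR adjusted p 0.0074), the latter not without ENR replicate 1. Bmi1, a gene of Polycomb repressive complex 1 used as a marker of reserve stem cells, rose from 19.2, 18.3 and 16.3 to 35.2, 40.2 and 35.8 CPM, and Mex3a, an RNA-binding protein of slowly cycling stem cells, from 10.5, 8.76 and 9.03 to 22.2, 20.3 and 14.5 CPM. Mex3a lay at the limit of the call (log2 fold change 1.01) and lost it without Hyper replicate 1, Hyper replicate 2 or ENR replicate 2.

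The other classical genes moved by less than 2-fold between Hyper- and ENR-organoids. Phlda1 differed by 0.85, the hyaluronan receptor Cd44 by 0.64, the ephrin receptor Ephb2 by 0.54, the ubiquitin ligase Rnf43, which removes Wnt receptors, by 0.54 and the transcription factor Sox9 by 0.44, each on the log2 scale and each past the adjusted p of 0.05. Ephb3 (-0.38), Rgmb (-0.94), Aqp4 (-0.82) and Hopx (-0.18) were lower at adjusted p under 0.05. Prom1 differed by 0.17. Axin2, a feedback inhibitor of Wnt signalling, was at 91.8, 94.5 and 83.5 CPM in ENR- and 116, 87.3 and 82.8 CPM in Hyper-organoids, and these ranges overlapped. Nrn1 varied within a group: it had 102 and 4.09 CPM in the -VE libraries, against 74.1, 72 and 77.7 in ENR- and 130.0, 128 and 129 in Hyper-organoids. Znrf3, Msi1, Slc12a2, Lrig1, Soat1, Tert and Cdca7 were not called with all libraries or in any alternative run, with log2 fold changes between -0.43 (Tert) and 0.09 (Cdca7), and 4 of the 7 turned sign in some alternative.

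**Figure D2:**
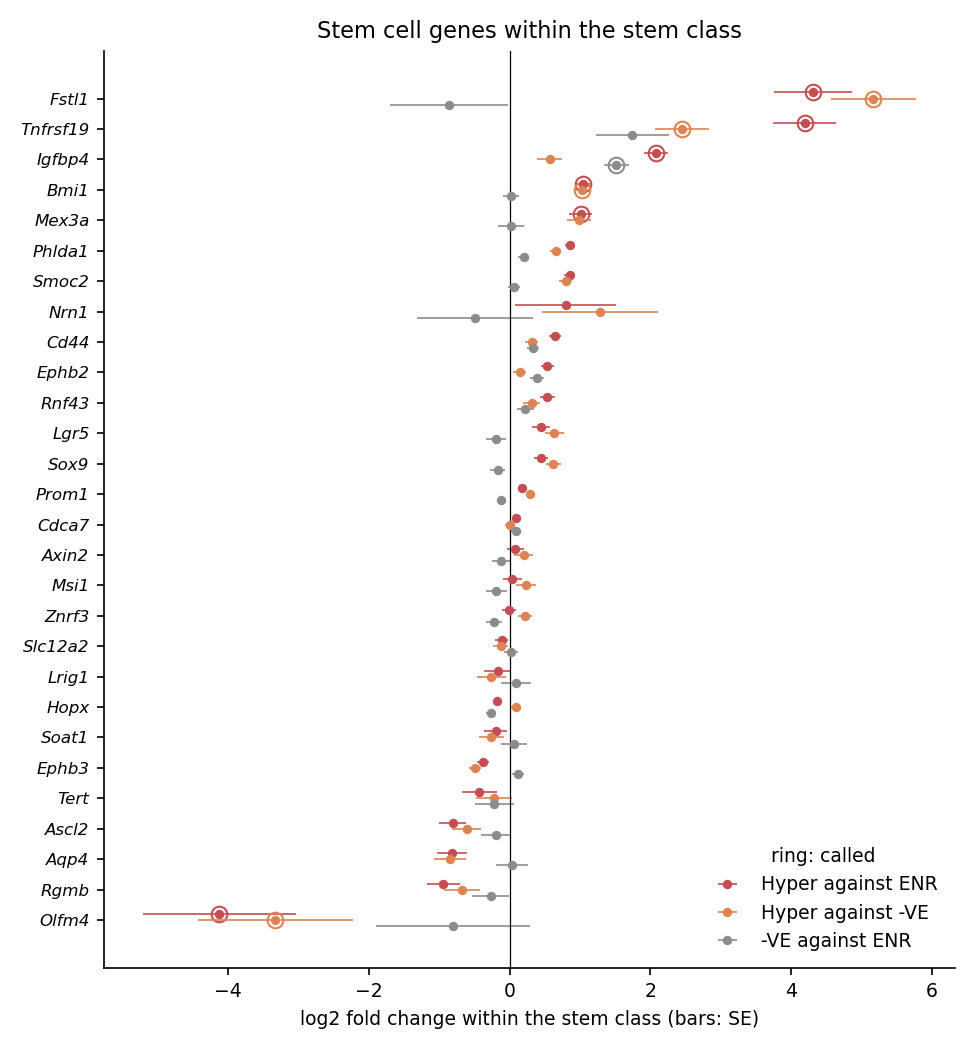
Log2 fold change (horizontal axis, bars show the SE) of the 28 stem cell genes (vertical axis) within the stem class, for Hyper against ENR, Hyper against -VE and -VE against ENR. Rings mark called genes. Olfm4 lies at -4.13 and Fstl1 and Tnfrsf19 above 4 in Hyper against ENR, while most genes lie within 1 of 0.

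At equal depth the share of stem cells with an Lgr5 UMI was higher in each Hyper library than in any ENR library, although 3 libraries against 3 cannot give an exact two-sided permutation p under 0.1. The share with Lgr5 was 59.2, 59 and 51.3% in ENR-, 59.5 and 49.9% in -VE- and 76.8, 77 and 64.2% in Hyper-organoids after thinning to 10000 UMIs, a difference of 16.2 percentage points between the ENR and Hyper means (exact permutation p 0.1, adjusted over 8 shares 0.1). The 95% exact binomial (Clopper-Pearson) interval, which covers counting error only, ran from 53.5% to 64.6% in ENR replicate 1 and from 74.2% to 79.3% in Hyper replicate 1. Without thinning the Lgr5 shares were 91, 87.1 and 84.7% and 97.8, 96.7 and 93.2%, with median depths of 31294 to 42140 UMIs before thinning. In enterocytes, which should lack the gene, the thinned Lgr5 share was 2.69, 3.98 and 4.83% in ENR- and 25.5 and 14.3% in -VE-organoids, and 15 of the 82 enterocytes of all Hyper libraries held one, with median depths of 33550 to 57295 UMIs in ENR and Hyper enterocytes. In TA cells the thinned Lgr5 share was 41.6 to 51.0% in ENR- and 69.2 to 77.1% in Hyper-organoids, so the rise was not particular to SC. The Lgr5 level rose less in SC than in TA, by -0.43 on the log2 scale (edgeR adjusted p 1.47e-06), under the 2-fold limit. Smoc2 was found in 81.6, 81.9 and 83.3% of ENR and 96.8, 95.3 and 92.6% of Hyper stem cells, and Ascl2 in 35.4, 36.5 and 32.5% and 28.9, 19.7 and 17.7%. All 8 shares tested had the same p of 0.1, the smallest that the design allows, since the ENR and Hyper libraries did not overlap.

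Genes of the Wnt pathway were described by role, since the Hyper and -VE media both hold an inhibitor of GSK-3. This kinase marks beta-catenin for destruction. Of 24 ligands, receptors and secreted inhibitors, 21 passed the filter on low counts, and 9 were called higher and 0 lower in Hyper- than in ENR-organoids, beside 15.2% and 2.8% of all genes. Wnt6, Sfrp1, Sfrp2 and Wif1 among the 9 passed the filter through the Hyper libraries, so the count is a description. The frizzled receptor Fzd3 had 1.41, 2.15 and 2.78 CPM in ENR-, 1.71 and 0.786 in -VE- and 17.4, 16.3 and 18.2 in Hyper-organoids. The ligand Wnt6 had 0.157, 0.0827 and 0.139 CPM in ENR-, 0.134 and 0.0813 in -VE- and 1.19, 2.03 and 1.69 in Hyper-organoids (log2 fold change 3.67, SE 0.477, edgeR adjusted p 0.000246), and the secreted inhibitor Sfrp1 0, 0.0827 and 0.278 CPM in ENR-, 0.0335 and 0 in -VE- and 1.59, 1.67 and 1.42 in Hyper-organoids (log2 fold change 3.97, SE 0.658, edgeR adjusted p 0.000965). A further inhibitor, Sfrp2, had 0 UMIs in all ENR and -VE libraries and 0.51, 4.9 and 1.31 CPM in Hyper-organoids, at least 24-fold higher than in ENR when 3 UMIs over the group stand for 0. It was not called without ENR replicate 1. Wif1 also had 0 UMIs in ENR and 0.643, 0.311 and 0.134 CPM in Hyper-organoids, at least 3.87-fold higher, and lost its call without any 1 ENR library. The co-receptors Lrp5 and Lrp6 had 20.5, 19.2 and 13.8 CPM and 37.2, 38.2 and 32.9 CPM in ENR- and 20.0, 19 and 14.3 CPM and 34.2, 40.3 and 33.9 CPM in Hyper-organoids, with overlapping ranges, and the most abundant frizzled, Fzd5, was lower by just under 2-fold (log2 fold change -0.98, SE 0.103, edgeR adjusted p 7.22e-05).

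Of 19 Wnt target genes, all tested, 5 were called higher and 0 lower, beside 15.2% and 2.8% of all genes, with a median log2 fold change of 0.54. These 5 were nearly silent or low in ENR-organoids, and Prox1, Lef1 and Notum passed the filter through the Hyper libraries, so the count is a description. Prox1, a homeobox factor, had 0, 0 and 0.139 CPM in ENR-, 0.1 and 0.0271 in -VE- and 13.2, 5.69 and 3.8 in Hyper-organoids (log2 fold change 7.74, SE 0.979, edgeR adjusted p 0.000209). Lef1, a partner of beta-catenin on DNA, had 0.235, 0.0827 and 0 CPM in ENR-, 0.1 and 0 in -VE- and 6.84, 5.23 and 4.6 in Hyper-organoids (log2 fold change 5.44, SE 0.563, edgeR adjusted p 6.73e-05), and Nkd1, a feedback inhibitor, 0.549, 1.41 and 0.556 CPM in ENR-, 0.569 and 0.19 in -VE- and 26, 10.7 and 5.48 in Hyper-organoids (log2 fold change 4.02, SE 0.7, edgeR adjusted p 0.00128). Notum, a secreted deacylase that inactivates Wnt ligands, had 0.157, 0.165 and 0.139 CPM in ENR-, 0.1 and 0.0271 in -VE- and 1.06, 1.26 and 0.294 in Hyper-organoids and was not called without any 1 ENR library. Sp5 was called at 1.07. Ccnd1 was lower by less than 2-fold (-0.54) and Myc higher (0.5). In -VE against ENR 0 genes of either list were called, where 0.503% of all genes were, with medians of -0.15 for the 21 pathway genes and -0.12 for the 19 targets. In Hyper against -VE, 8 of the 21 and 5 of the 19 were called higher and 0 lower, beside 14.7% and 1.76% of all genes. The medians were 0.72 and 0.46, and these counts are a description too.

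The stem class of Hyper-organoids held fewer transcripts of DNA replication. All 24 S phase genes were lower in Hyper- than in ENR-organoids, 23 at an adjusted p under 0.05 and 1 past the 2-fold limit, with a median log2 fold change of -0.59, beside 23.4% of all genes lower at any fold. Against -VE-organoids all 24 were lower at an adjusted p under 0.05, beside 20.3% of all genes. The subunits Mcm2 to Mcm7 of the replicative helicase fell by less than 2-fold. Mcm5 had 134, 146 and 127 CPM in ENR-, 133 and 140.0 in -VE- and 81.9, 78.3 and 68.5 in Hyper-organoids (log2 fold change -0.83, SE 0.0824, edgeR adjusted p 5.27e-05), and Mcm2 moved least of the 6 (-0.49). Cdc45, the helicase partner that is loaded as origins fire, had 19.8, 25 and 17.8 CPM in ENR-, 21.5 and 24.6 in -VE- and 10.5, 10.1 and 9.47 in Hyper-organoids (log2 fold change -1.07, SE 0.123, edgeR adjusted p 0.000128), and was under 2-fold without ENR replicate 2, with at least 10 CPM in 2 libraries and in cells with both an Lgr5 and an Ascl2 UMI. Pola1, the catalytic subunit of the polymerase that primes DNA synthesis, differed by -0.95 and Pcna, the sliding clamp, by -0.39. Rrm2, a subunit of ribonucleotide reductase, was the exception to the adjusted p (-0.08, edgeR adjusted p 0.598).

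The S phase genes changed differently in TA cells, and this difference was tested. The medians of their log2 fold changes were -0.59 in SC and 0.12 in TA. In plain CPM of the class, the 24 S phase genes summed to 2031 to 2307 in ENR, 2143 to 2294 in -VE and 1468 to 1709 in Hyper stem cells. In TA cells they summed to 1357 to 1720, 1599 to 1651 and 1746 to 1949 CPM, so the order of SC and TA was turned in Hyper-organoids. The change of Hyper against ENR was lower in SC than in TA for 24 of 24 genes, all at an adjusted p under 0.05 and 2 past the 2-fold limit, with a median difference of -0.67, where 6.84% of all genes were lower in SC at any fold. The 2 genes were Ung, a uracil glycosylase that repairs replicating DNA (-1.11), and Cdc45 (-1.18). The authors' clusters were made from the expression of these cells, so a change within cells and a shift of the border between SC and TA cannot be told apart.

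Genes of mitosis did not follow those of S phase against ENR. Of 24 mitosis genes, 0 were called higher and 1 lower in Hyper- than in ENR-organoids, beside 15.2% and 2.8% of all genes. At an adjusted p under 0.05 and any fold, 8 were higher and 3 lower, beside 26.1% and 23.4% of all genes, with a median of 0.13. The called gene was Top2a, a topoisomerase of S and G2 phase, with 50.9, 57.5 and 53.9 CPM in ENR-, 55.3 and 72.2 in -VE- and 26.9, 24.4 and 21.1 in Hyper-organoids (log2 fold change -1.16, SE 0.119, edgeR adjusted p 6.46e-05). Mki67 had 51.2, 49.8 and 52.4 CPM in ENR- and 45.9, 46.6 and 38.4 CPM in Hyper-organoids, all Hyper values below the ENR values (log2 fold change -0.23, SE 0.115, edgeR adjusted p 0.131). Cdc20 (log2 fold change 0.6), Tpx2 (0.59) and Cenpa (0.58) were higher at an adjusted p under 0.05 and by less than 2-fold. In -VE- against ENR-organoids all 24 mitosis genes had a positive log2 fold change with a median of 0.42. Of these 1, the kinase Aurka (1.02, edgeR adjusted p 0.0307), was called higher, beside 0.23% of all genes. Against -VE-organoids, 12 of the 24 were lower and 1 higher in Hyper-organoids at an adjusted p under 0.05 and any fold, with a median of -0.37, beside 20.3% and 23.7% of all genes, and 2 were called lower, Top2a (-1.40) and the kinase Aurkb (-1.26), beside 1.76% of all genes. The thinned share of stem cells with an Mki67 UMI was 35.4, 31.1 and 37.3% in ENR-, 29.3 and 39.5% in -VE- and 29.6, 30.5 and 25.6% in Hyper-organoids.

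**Figure D3:**
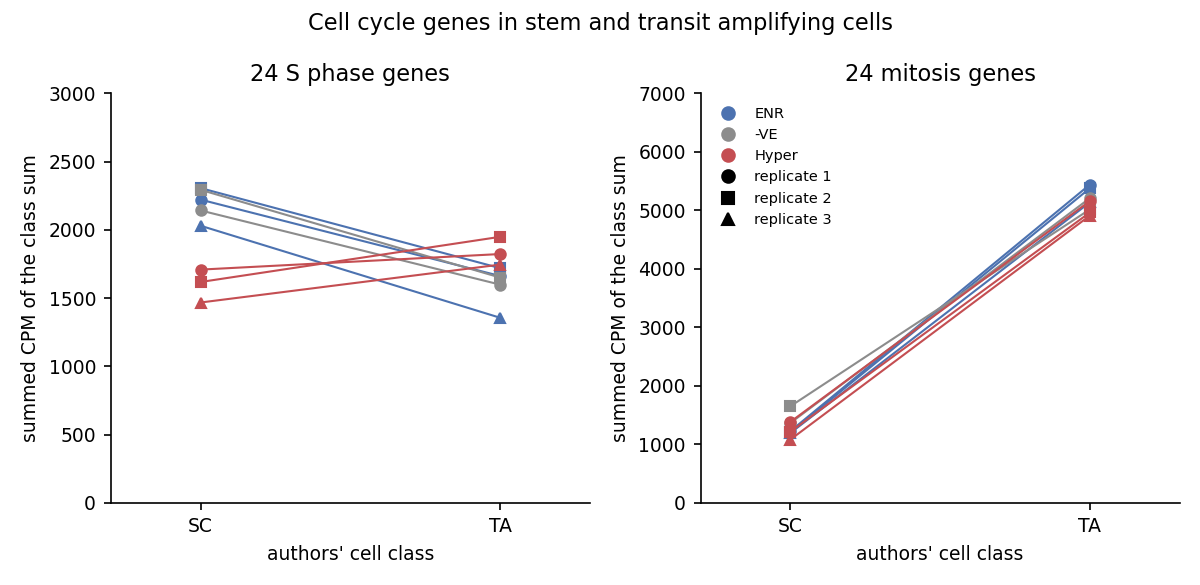
Summed level of 24 S phase genes and of 24 mitosis genes (vertical axes, plain CPM of the class) in SC and TA (horizontal axes), with 1 line per library, colours for the medium and symbols for the replicate. S phase sums fall from SC to TA in the 5 ENR and -VE libraries and rise in the 3 Hyper libraries, while mitosis sums rise in all 8.

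Of 20 regulators of the cycle, all tested, 5 were called higher and 0 lower, beside 15.2% and 2.8% of all genes, and 4 of the 5 code for inhibitors of cyclin-dependent kinases. Cdkn2a among the 5 passed the filter through the Hyper libraries, so the count is a description. Cdkn2a, which codes for the inhibitors p16 and p19ARF and is a known target of Polycomb repression, had 0, 0.248 and 0.139 CPM in ENR-, 0.234 and 0.0271 in -VE- and 13.8, 4.28 and 28.2 in Hyper-organoids (log2 fold change 6.89, SE 1.09, edgeR adjusted p 0.000744). The p53-induced inhibitor Cdkn1a had 30.2, 33.2 and 28.3 CPM in ENR-, 37.5 and 23.6 in -VE- and 89.1, 70.4 and 98.9 in Hyper-organoids (log2 fold change 1.49, SE 0.179, edgeR adjusted p 0.000157). The p57 gene Cdkn1c had 6.9, 6.61 and 6.11 CPM in ENR-, 5.63 and 4.28 in -VE- and 23.3, 19.4 and 18.1 in Hyper-organoids (log2 fold change 1.62, SE 0.145, edgeR adjusted p 3.03e-05). Phlda3, a p53-induced inhibitor of Akt, had 7.68, 7.61 and 6.11 CPM in ENR-, 8.67 and 7.81 in -VE- and 27.5, 27 and 33.9 in Hyper-organoids (log2 fold change 2.02, SE 0.129, edgeR adjusted p 4.90e-06). The fifth, Cdkn2d, was called at 1.84, and not after thinning. Hyper libraries lay above all others for each of these genes. At an adjusted p under 0.05 and by less than 2-fold, 5 of the 20 were lower, a share close to the 23.4% of all genes lower at any fold. Among the 5 were the cyclins Ccnd1 and Ccne2 and the inhibitor Cdkn1b. The others were the kinase Cdk4 (-0.48) and Trp53 itself (-0.46).

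Genes of injury repair rose in Hyper stem cells. Of 8 such genes, all tested, 7 were called higher in Hyper- than in ENR- and in -VE-organoids and 0 in -VE against ENR, beside 15.2%, 14.7% and 0.23% of all genes, and Cxadr, a junction protein, was not called (0.24). The authors screened the medium for 4 of these genes, Clu, Ly6a (Sca1), Anxa1 and Reg3b, so their direction is not independent evidence. They named Tead2 as a top factor of Hyper-organoids from single-cell data of these 3 media, so its rise is not independent either. Some of the 8 genes held few UMIs in ENR-organoids and passed the filter through the Hyper libraries, so the count is a description. Reg3b, an antimicrobial lectin, had 1.1, 1.41 and 0.417 CPM in ENR-, 0.435 and 0.108 in -VE- and 184, 410.4 and 591 in Hyper-organoids (log2 fold change 8.54, SE 0.574, edgeR adjusted p 6.03e-06). Reg3g had 13.8, 14.7 and 13.6 CPM in ENR-, 5.93 and 5.94 in -VE- and 273, 569 and 862 in Hyper-organoids (log2 fold change 5.33, SE 0.393, edgeR adjusted p 9.88e-06), and these 2 made up most of the summed level. Ly6a had 0, 0.165 and 1.25 CPM in ENR-, 1.61 and 3.9 in -VE- and 12.6, 21.5 and 74.7 in Hyper-organoids (log2 fold change 6.68, SE 1.12, edgeR adjusted p 0.00104). Anxa1, an annexin that dampens inflammation, had 0.47, 0.0827 and 0 CPM in ENR-, 0.502 and 2.03 in -VE- and 8.56, 12 and 20.4 in Hyper-organoids (log2 fold change 5.95, SE 0.755, edgeR adjusted p 0.000215). Clu, a secreted chaperone that marks revival stem cells, had 1.1, 0.909 and 0.417 CPM in ENR-, 2.31 and 3.98 in -VE- and 5.82, 40.7 and 26.6 in Hyper-organoids (log2 fold change 4.81, SE 0.826, edgeR adjusted p 0.00119), with the lowest Hyper value in replicate 1. Against -VE the Clu call (2.94) was lost without -VE replicate 1. The membrane protein Basp1 (6.4) and Tead2 (2.06), a DNA-binding partner of YAP, completed the list.

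These genes were also high in TA cells of Hyper-organoids. The 8 genes summed to 630 to 1720 plain CPM in SC and to 532 to 1771 in TA of Hyper-organoids, and to 69.9 to 81.4 and 59.4 to 70.8 in ENR-organoids, and the change differed between SC and TA past the 2-fold limit for 0 of 8, where 1.14% of all genes passed it, and 1 of the 8 passed the adjusted p at a smaller difference. The thinned share of Hyper stem cells with a Clu UMI was 4.21, 19.3 and 13.3%, below the 14.3, 24.6 and 38.9% of enterocytes in the same libraries. The enterocyte share was 0.372 to 1.61% in ENR-organoids, so it differed between media too and gives no measure of background. How much of the Clu share of SC is background was not tested. For Anxa1 the shares were 7.7, 10.2 and 16.8% in SC and 0, 10.5 and 22.2% in enterocytes, and for Ly6a 4.21, 8.69 and 19.8% and 0, 3.51 and 16.7%, with 7, 57 and 18 enterocytes behind the latter. The Anxa1 share of SC was at or below that of enterocytes in replicates 2 and 3, and the Ly6a share above it in all 3. In ENR-organoids the Clu share of SC was 1.58, 1.27 and 0.877%. Cells with all of Clu, Anxa1 and Ly6a made up 0.179%, 1.03% and 2.36% of Hyper, 0% and 0.0994% of -VE and 0% of ENR stem cells. By counting error alone and at this depth, 0 of 316, 315 and 228 cells of ENR replicates 1, 2 and 3 allow up to 0.949, 0.952 and 1.32% of cells with such UMIs. The authors describe their revival stem cells by the same 3 markers and placed them in the separate class RSC. It held 5, 14 and 26 cells in Hyper- and 8 and 17 in -VE-organoids, and the shares of SC leave these cells out. In Hyper replicate 3, the 8 repair genes summed to 4877 plain CPM in RSC.

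**Figure D4:**
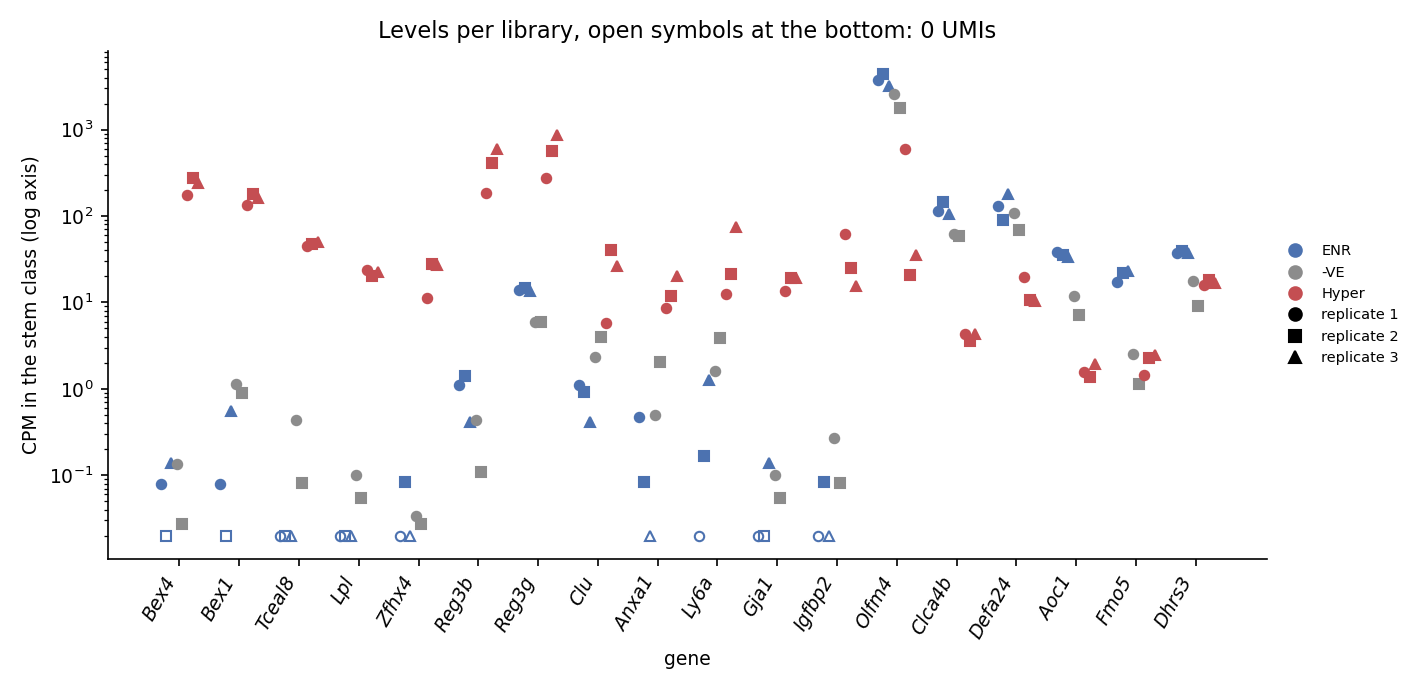
Level of 18 genes (vertical log axis, CPM of the summed stem class) in each library, with colours for the medium and symbols for the replicate. Open symbols at the bottom stand for 0 UMIs. The first 12 genes are higher in Hyper-organoids, by over 5 log2 units for Bex4, Reg3b and Gja1, and the last 6 are lower, with Fmo5 and Dhrs3 also low in -VE-organoids.

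Genes of the fetal epithelium and targets of YAP, a transcriptional co-activator of the Hippo pathway, were called in the same direction. Of 22 fetal genes, 19 passed the filter, 11 of them called higher and 0 lower against ENR, beside 15.2% and 2.8% of all genes. Gja1, a gap junction protein, had 0, 0 and 0.139 CPM in ENR-, 0.1 and 0.0542 in -VE- and 13.6, 19 and 19.2 in Hyper-organoids (log2 fold change 8.93, SE 0.459, edgeR adjusted p 1.46e-06). The tight junction protein Cldn4 had 13.2, 23.9 and 7.22 CPM in ENR-, 22.4 and 17.2 in -VE- and 95.1, 86.2 and 72.6 in Hyper-organoids (log2 fold change 2.47, SE 0.296, edgeR adjusted p 0.000157). Spp1 (osteopontin) had 0 UMIs in ENR- and -VE-organoids and 0.529, 2.58 and 2.97 CPM in Hyper-organoids, at least 21.6-fold higher than in ENR. Of 22 YAP and TAZ targets, 18 passed the filter, 9 called higher and 0 lower, beside 15.2% and 2.8% of all genes. Spp1, Gja1 and Fjx1 of these lists passed the filter through the Hyper libraries, so both counts are a description. Igfbp3 had 0.392, 0.413 and 0.278 CPM in ENR-, 0.502 and 0.108 in -VE- and 17, 19.3 and 5.35 in Hyper-organoids (log2 fold change 5.21, SE 0.688, edgeR adjusted p 0.00027), and Fjx1 had 0 UMIs in ENR- and 4.88, 12.3 and 13.9 CPM in Hyper-organoids, at least 111-fold higher. Ctgf was called at 2.06, while Cyr61 was not (0.63) and Ankrd1 did not pass the filter. Within the Hippo pathway, 4 of 16 genes were called higher, beside 15.2% of all genes. A further 4 (Mob1a, Vgll4, Lats1 and Yap1) were lower at an adjusted p under 0.05 by less than 2-fold. This share was close to the 23.4% of all genes lower at that adjusted p and any fold. The median log2 fold change of the 16 was -0.11. The called genes were Wwtr1, which codes for TAZ (2.98, 1.24 and 3.47 against 15.7, 12.9 and 13.9 CPM, log2 fold change 2.52), Tead2, Tead4 (3.09) and the kinase Lats2 (1.78). Tead2 is also counted among the repair genes above. Yap1 itself was lower by less than 2-fold (-0.22, edgeR adjusted p 0.0352).

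VPA inhibits histone deacetylases and EPZ6438 inhibits EZH2, and the genes for these enzymes and their partners were not called. Of 15 genes of Polycomb repressive complex 2, its partners and histone H3K27 demethylases, 0 were called in any comparison, where 18%, 16.5% and 0.503% of all genes were in Hyper against ENR, Hyper against -VE and -VE against ENR (Bmi1 was counted with the stem cell genes above), with a median of -0.24 for Hyper against ENR. Ezh2 had 104, 103 and 105 CPM in ENR-, 104 and 105 in -VE- and 88, 72 and 80.8 in Hyper-organoids (-0.37), Eed differed by -0.37 and Suz12 by -0.34, all past the adjusted p of 0.05 and under 2-fold. Of 14 deacetylase genes, 13 passed the filter and 0 were called, and Hdac1 differed by 0.4. Unadjusted p values were under 0.05 for 7741 of the 13920 genes in this comparison.

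Homeobox genes of the Hox clusters, which are classical Polycomb targets, and some imprinted genes were near silence in ENR stem cells. Of 39 Hox genes, 36 were in the table and 16 passed the filter, and a gene low in ENR-organoids passed only where other libraries held it. Of these 16, 11 were called higher and 0 lower against ENR, a description beside the 15.2% of all genes. Hoxa5 had 0.392, 0.661 and 0.695 CPM in ENR-, 1.04 and 0.895 in -VE- and 3.69, 12.5 and 9.09 in Hyper-organoids (log2 fold change 3.89, SE 0.537, edgeR adjusted p 0.000345), and Hoxa7 1.57, 0.579 and 0.278 CPM in ENR-, 3.35 and 0.515 in -VE- and 4.91, 12.6 and 17.5 in Hyper-organoids (log2 fold change 3.7, SE 0.797, edgeR adjusted p 0.00406). Hoxb8 had 0 UMIs in all 5 other libraries and 0.397, 1.7 and 6.34 CPM in Hyper-organoids, at least 30.1-fold higher than in ENR, and lost its call without any 1 ENR library. The summed Hox level was 6.2 to 10.6 CPM in ENR-, 5.94 to 12.4 in -VE- and 21.6 to 71.7 CPM in Hyper-organoids. Of 18 imprinted genes, 11 passed the filter, 7 called higher and 0 lower, and since Peg3, Sgce, Peg10 and H19 held few or no UMIs outside the Hyper libraries and passed through them, this count is a description beside the 15.2% of all genes. Peg3, a zinc finger gene expressed from the paternal allele, had 0.157, 0 and 0 CPM in ENR-, 0.067 and 0.0271 in -VE- and 11.5, 45.2 and 20.7 in Hyper-organoids (log2 fold change 8.6, SE 0.952, edgeR adjusted p 9.92e-05). Sgce and Peg10, which lie side by side, were both called, with 8.01, 11.5 and 14.6 CPM of Sgce and 0.945, 1.3 and 1.77 CPM of Peg10 in Hyper-organoids, where the ENR libraries held 0, 0.0827 and 0 and the -VE libraries 0.0335 and 0.0271 CPM of Sgce. H19 had 0 UMIs in ENR and 2.08, 0.695 and 0.642 CPM in Hyper-organoids, at least 12.2-fold higher. Igf2, its neighbour, Dlk1 and Meg3 did not pass the filter. Counts of 3′ ends carry no allele, so imprinting itself was not measured.

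The 3 largest fitted rises by the rule for named genes against ENR, Tceal8, Lpl and Bex4, included 2 neighbours on the X chromosome. Tceal8 and Lpl had 0 UMIs in ENR-organoids, so their order is not measured. The stretch around the neighbours was looked at after their values were seen. Bex and Tceal genes code for small proteins of the TCEAL family. Between Arxes2 and Bex3 (X chromosome, 135993824 to 136271978, GRCm38, 0.278 Mb) lie 11 genes of the table, of which 8 were tested. All 8 were called higher in Hyper- than in ENR- and in -VE-organoids and 0 in -VE against ENR, beside 15.2%, 14.7% and 0.503% of all genes. Arxes2, Arxes1, Bex4 and Tceal8 held few or no UMIs outside the Hyper libraries and passed the filter through them. The stretch was also chosen for its rises, so this count is a description. Bex4 (chrX:136138996-136140443) had 0.0784, 0 and 0.139 CPM in ENR-, 0.134 and 0.0271 in -VE- and 176, 272 and 239.9 in Hyper-organoids (log2 fold change 11.75, SE 0.37, edgeR adjusted p 2.33e-07). Bex1 (chrX:136213972-136215513, minus strand) had 0.0784, 0 and 0.556 CPM in ENR-, 1.14 and 0.895 in -VE- and 133, 182 and 164 in Hyper-organoids (log2 fold change 9.95, SE 0.33, edgeR adjusted p 2.33e-07). Tceal8 (chrX:136168984-136172342, minus strand) had 0, 0 and 0 CPM in ENR-, 0.435 and 0.0813 in -VE- and 45, 47.8 and 49.9 in Hyper-organoids, at least 508-fold higher than in ENR. Bex2 (log2 fold change 5.64, SE 0.198, edgeR adjusted p 2.67e-07), Arxes2 (9.35) and Arxes1, which had 0 UMIs in ENR, rose too. Tceal9 (1.58) and Bex3 (2.12) were expressed in all groups, Bex3 with 36.8, 36.9 and 36.7 CPM in ENR-, 54 and 51.1 in -VE- and 160.4, 166 and 154 in Hyper-organoids. Arxes1 and Arxes2, and Bex4 and Bex1, are pairs of similar genes, so their counts may be mixed. From Hnrnph2 to Esx1, 28 genes were tested, 16 called higher and 12 not called. Over the whole X chromosome 107 of 431 tested genes (24.8%) were called higher, against 11.4% to 18.7% on the 19 autosomes. The 107 include the 8 genes of the chosen stretch. They also include genes that passed the filter through the Hyper libraries, such as Armcx2 and Armcx4 with 0 UMIs in ENR. These shares are a description with no test.

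Promoters of this stretch are shown because its genes rose together, beside that of Olfm4, which fell. Each run is the 250 bases before the RefSeq start on the gene's strand (GRCm38.p6), 5′ to 3′, with capitals for GGAATG, the core of the TEAD motif, searched on both strands (CATTCC on the other).
Bex4, chrX:136138746-136138995, plus strand: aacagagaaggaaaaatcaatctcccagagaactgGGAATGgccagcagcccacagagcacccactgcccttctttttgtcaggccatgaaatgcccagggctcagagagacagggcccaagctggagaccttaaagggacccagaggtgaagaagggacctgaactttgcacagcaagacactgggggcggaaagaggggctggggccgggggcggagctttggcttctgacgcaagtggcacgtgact
Bex1, chrX:136215514-136215763, minus strand: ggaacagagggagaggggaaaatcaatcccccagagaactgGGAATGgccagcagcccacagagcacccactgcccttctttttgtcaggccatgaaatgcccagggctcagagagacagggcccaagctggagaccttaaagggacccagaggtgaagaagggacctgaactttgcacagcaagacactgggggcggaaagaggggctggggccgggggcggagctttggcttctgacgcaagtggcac
Tceal8, chrX:136172252-136172501, minus strand: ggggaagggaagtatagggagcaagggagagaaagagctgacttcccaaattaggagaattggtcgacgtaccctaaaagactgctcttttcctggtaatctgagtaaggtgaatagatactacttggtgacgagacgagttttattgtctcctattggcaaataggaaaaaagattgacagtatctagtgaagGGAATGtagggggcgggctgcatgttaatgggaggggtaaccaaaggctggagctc
Bex2, chrX:136068237-136068486, minus strand: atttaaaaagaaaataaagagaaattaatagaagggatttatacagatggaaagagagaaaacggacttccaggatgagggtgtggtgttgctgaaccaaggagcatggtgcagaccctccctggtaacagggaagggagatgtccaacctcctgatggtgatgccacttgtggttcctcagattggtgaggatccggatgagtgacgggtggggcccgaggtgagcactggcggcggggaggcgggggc
Olfm4, chr14:80000052-80000301, plus strand: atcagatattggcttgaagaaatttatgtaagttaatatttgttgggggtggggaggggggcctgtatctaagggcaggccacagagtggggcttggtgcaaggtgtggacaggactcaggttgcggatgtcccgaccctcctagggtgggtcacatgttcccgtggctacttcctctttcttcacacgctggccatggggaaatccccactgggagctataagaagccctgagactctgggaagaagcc
The windows of Bex4 and Bex1 share an unbroken run of 221 bases, with the motif at -215 and -209 from the start, and Tceal8 has it at -56. The motif was in 4 of the 10 windows found for the stretch, and in 12.6% of all 27025 windows of the same length. The 4 were Bex4, Bex1, Tceal8 and Tceal7, the last of which was not tested. Since Bex4 and Bex1 share their sequence and the stretch was chosen for its rises, these shares give no measure of enrichment. Bex2 and Olfm4 hold none in these letters. CTTTGAT, the TCF motif (ATCAAAG on the other strand), was in 0 of these 5 windows and in 3.23% of all. The windows of Bex4, Bex1 and Tceal8 hold 5, 4 and 5 CG pairs, that of Bex2 7 and that of Olfm4 4, beside a median of 6 and quartiles of 2 and 16 over all windows. The Olfm4 window lies inside and the Tceal8 window partly inside the gene model above, each of which has an earlier start. A match of letters is a description and no sign of binding.

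**Figure D5:**
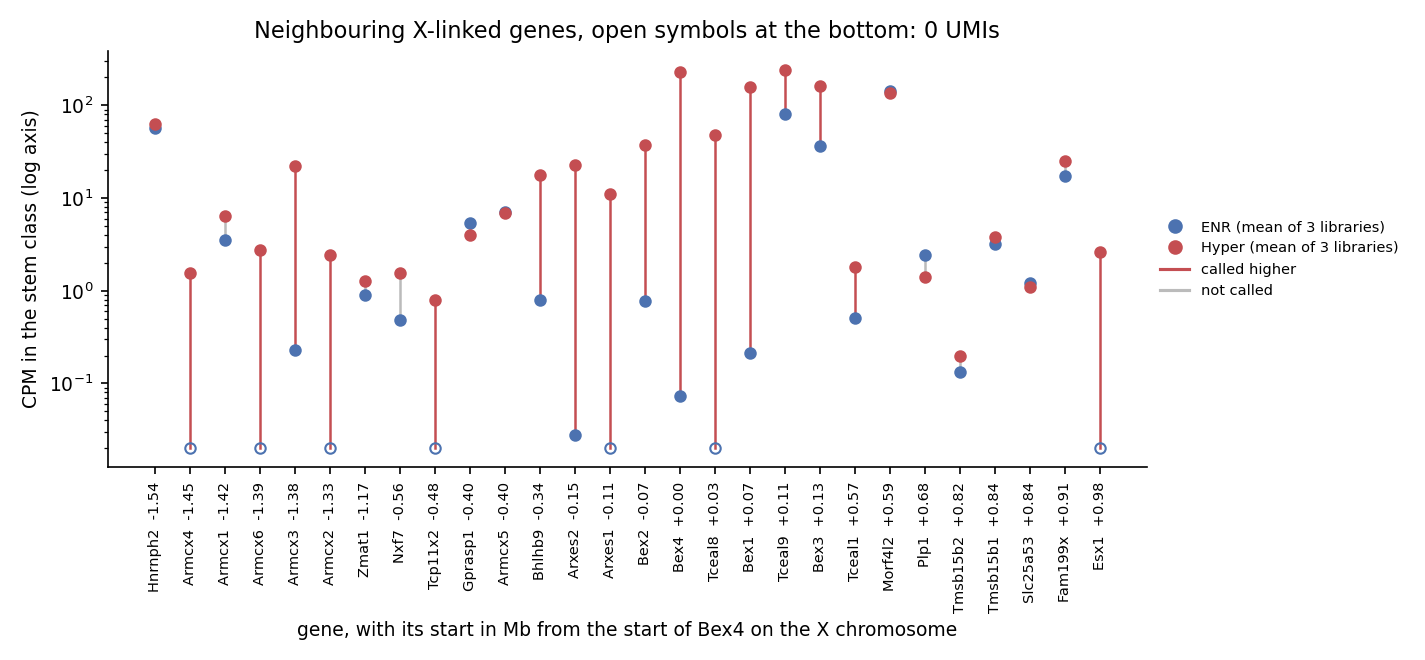
Mean level in the stem class (vertical log axis, CPM) of tested neighbouring genes of the X chromosome in order, with the start of each gene in Mb from that of Bex4 (horizontal axis). Blue points are ENR and red points Hyper means of 3 libraries, red lines mark called genes and open points 0 UMIs. The 8 genes from Arxes2 to Bex3 are all called, while genes on both sides are called in part.

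Among the remaining largest changes, Lpl (lipoprotein lipase) had 0 UMIs in ENR-, 0.1 and 0.0542 CPM in -VE- and 23.7, 20.1 and 22.4 CPM in Hyper-organoids, at least 236-fold higher than in ENR. Igfbp2 had 0, 0.0827 and 0 CPM in ENR-, 0.268 and 0.0813 in -VE- and 61.9, 25.2 and 15.3 in Hyper-organoids (log2 fold change 9.92, SE 1.11, edgeR adjusted p 0.000106) and the interferon-induced Ifitm1 0, 0 and 0.139 CPM in ENR-, 0.067 and 0.244 in -VE- and 23.4, 33.7 and 10.7 in Hyper-organoids (log2 fold change 9.32, SE 0.891, edgeR adjusted p 4.32e-05). Zfhx4, a homeodomain factor, had 0, 0.0827 and 0 CPM in ENR-, 0.0335 and 0.0271 in -VE- and 11.1, 28.1 and 27 in Hyper-organoids (log2 fold change 9.29, SE 0.757, edgeR adjusted p 1.80e-05). H2afy2, which codes for a macroH2A histone, had 0.549, 0.0827 and 0.139 CPM in ENR-, 0.067 and 0.0813 in -VE- and 21.5, 23.9 and 19 in Hyper-organoids, and was among the largest rises against -VE (8.09). Of 9 genes of MHC class II presentation, 3 passed the filter and 2 were called higher, a description beside the 15.2% of all genes, since H2-Ab1 passed through the Hyper libraries. H2-Ab1 had 0.549, 0.248 and 0.139 CPM in ENR-, 0.971 and 0.19 in -VE- and 31.4, 16.1 and 30.5 in Hyper-organoids (log2 fold change 6.23, SE 0.565, edgeR adjusted p 3.27e-05), while its partner chain H2-Aa, the invariant chain Cd74 and their activator Ciita did not pass the filter.

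Genes of energy metabolism rose in part. Of 20 glycolysis genes, 18 passed the filter, all with a positive log2 fold change against ENR (median 0.73), 16 of them at an adjusted p under 0.05 and 7 past 2-fold, beside 26.1% and 15.2% of all genes. Ldhb among the 7 passed the filter through the Hyper libraries, so these counts are a description. Ldhb, a subunit of lactate dehydrogenase, had 0.0784, 0.579 and 0.278 CPM in ENR-, 0.234 and 0.244 in -VE- and 68.6, 57.8 and 73.7 in Hyper-organoids (log2 fold change 7.72, SE 0.253, edgeR adjusted p 2.33e-07). Hexokinase Hk1 had 5.17, 3.89 and 5.14 CPM in ENR-, 7.84 and 5.77 in -VE- and 23.2, 24.5 and 27.1 in Hyper-organoids (log2 fold change 2.4, SE 0.156, edgeR adjusted p 5.37e-06). Several genes had part of the difference already in -VE-organoids: the lactate transporter Slc16a3 had 47.5, 51.1 and 40.0 CPM in ENR-, 91.3 and 72.9 in -VE- and 165, 137 and 129 in Hyper-organoids, and 9 of 18 genes were higher in -VE than in ENR and 0 lower at an adjusted p under 0.05, beside 0.862% and 0.675% of all genes, with 0 past 2-fold. Of 20 genes of fat oxidation, 5 were called higher and 2 lower, beside 15.2% and 2.8% of all genes, and the list had a median of 0.04 with 10 of 20 positive. Pdk4 among the 5 passed the filter through the Hyper libraries, so the count is a description. Pdk4, a kinase that holds back pyruvate oxidation, had 0, 0.165 and 0.139 CPM in ENR-, 0.301 and 0.244 in -VE- and 1.59, 2.36 and 2.86 in Hyper-organoids (log2 fold change 4.53, SE 0.592, edgeR adjusted p 0.000253). The thioesterase Acot1 rose too (1.18), and Fabp2 fell from 332, 355 and 376 to 124, 103 and 160.1 CPM (-1.46).

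Genes of the BMP, ERK and Notch pathways, which act on crypt stem cells, were called in part. Of 27 BMP genes, 22 passed the filter, 6 called higher and 1 lower, beside 15.2% and 2.8% of all genes. Bmp4 among the 6 passed the filter through the Hyper libraries, so the count is a description. The BMP-induced Id1 fell (43.4 CPM in the ENR mean, 20.1 in -VE and 14.4 in Hyper, log2 fold change -1.59), and Bambi, a decoy receptor, rose, with 2.74, 2.31 and 2.78 CPM in ENR-, 9.07 and 12.4 in -VE- and 14.9, 16.5 and 15.4 in Hyper-organoids. Bambi was also called in -VE against ENR (log2 fold change 2.05, SE 0.175, edgeR adjusted p 0.00252). Id3 was lowest in -VE-organoids, with 36.3, 43.2 and 29 CPM in ENR-, 12.4 and 10.7 in -VE- and 22.7, 24.6 and 26.1 in Hyper-organoids, called in -VE against ENR (-1.66) and in Hyper against -VE (1.09, under 2-fold without -VE replicate 2). The ligand Bmp4 had 0, 0.0827 and 0.139 CPM in ENR-, 0 and 0 in -VE- and 1.21, 1.92 and 3.08 in Hyper-organoids, and Bmp8b and Id4 were called at 2.83 and 3.31. Of 30 genes of the EGF, FGF and ERK pathways, 28 passed the filter, 5 called higher and 0 lower, a share close to the 15.2% of all genes. At any fold, 16 passed the adjusted p of 0.05 as higher and 1 as lower, beside 26.1% and 23.4% of all genes. The median log2 fold change of the 28 was 0.56. The EGF family ligand Areg had 16.8, 15.5 and 19.2 CPM in ENR-, 25.4 and 14.3 in -VE- and 95, 27.2 and 44.6 in Hyper-organoids (log2 fold change 1.71, SE 0.43, edgeR adjusted p 0.00895), Fgfr1 was called at 3.24, Etv1 at 2.09, though not after thinning, and Spry4 at 1.09, though not without ENR replicate 1 or without the 5% of cells with the most UMIs. Of 21 Notch genes, 18 passed the filter and 2 were called higher, a share below that of all genes, Notch3 (0.549, 0.827 and 0.278 against 3.69, 3.11 and 2.78 CPM, log2 fold change 2.45) and Mfng (2.09), which was not called after thinning. Hes1, the Notch effector of stem cells, was higher by less than 2-fold (0.58, edgeR adjusted p 0.00794). Among 24 transcription factors of the gut, 23 passed the filter. Sox17 rose (0, 0.0827 and 0 against 1.66, 1.41 and 1.34 CPM), Isx fell (80.9, 77.6 and 84.1 CPM in ENR-, 30.4 and 3.63 in -VE- and 20.1, 5.31 and 11.4 in Hyper-organoids), and Cdx2 differed by 0.29.

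Several genes of mature lineages were lower in Hyper stem cells. Of 10 Paneth cell genes, 9 were in the table and 8 passed the filter, 5 called lower and 1 higher, beside 2.8% and 15.2% of all genes. The defensin Defa24 had 130.1, 89.9 and 179 CPM in ENR-, 107 and 68.9 in -VE- and 19.7, 10.7 and 10.4 in Hyper-organoids (log2 fold change -3.27, SE 0.322, edgeR adjusted p 5.14e-05), Defa30 30.9, 29.3 and 43.6 CPM in ENR-, 22.4 and 13.9 in -VE- and 3.06, 1.06 and 1.2 in Hyper-organoids, and lysozyme Lyz1 81.1, 70.2 and 73.4 CPM in ENR-, 64.7 and 52.7 in -VE- and 26.7, 7.41 and 13.7 in Hyper-organoids. Mmp7, the protease that activates defensins, was the gene that rose (0.627, 0.413 and 0.834 against 9.17, 6.99 and 5.75 CPM, log2 fold change 3.6). The same libraries held 32, 40 and 54 annotated Paneth cells in ENR-, 30 and 59 in -VE- and 10, 2 and 2 in Hyper-organoids, and the summed Paneth cell genes were 0.669 to 1.02 times as high in TA as in SC. Defensin genes are similar copies, so that counts of single members are uncertain. How much free RNA of Paneth cells adds to these values was not tested. Clca4b fell most by the rule, with 115, 144 and 106 CPM in ENR-, 61.2 and 59.2 in -VE- and 4.33, 3.57 and 4.33 in Hyper-organoids (log2 fold change -4.91, SE 0.133, edgeR adjusted p 1.44e-07). Aoc1 (-4.49), the kallikrein Klk1 (-3.43), Fmo5 (-3.32) and Tnfsf13os (-2.93) fell too, with the falls of Olfm4 and Defa24 lying between these.

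Of 4 enterocyte progenitor genes, 3 were called lower, beside 2.8% of all genes, and the fourth, Pycard, fell by just under 2-fold (-0.99). Cfhr2 had 6.03, 6.7 and 6.67 CPM in ENR-, 2.41 and 0.976 in -VE- and 0.0567, 0.0366 and 0 in Hyper-organoids (log2 fold change -7.4, SE 0.538, edgeR adjusted p 9.18e-06). Dmbt1 had 229, 166 and 291 CPM in ENR-, 173 and 349 in -VE- and 6.77, 54.8 and 98.8 in Hyper-organoids, and its call (-2.1) was lost without any 1 ENR library or Hyper replicate 2. Annotated enterocyte progenitors numbered 486, 635 and 809 in ENR-, 105 and 184 in -VE- and 3, 3 and 2 in Hyper-organoids, and their part in these values was not tested. With the same shares of all genes, 2.8% lower and 15.2% higher, beside them, the other lineages went as follows. Of 10 enterocyte genes 9 passed the filter, 3 called lower (Sis, Apoa1 and Apoa4) and 2 higher (Anpep at 1.51 and Reg1 at 2.35). Reg1 lost its call without ENR replicate 1, ENR replicate 3 or Hyper replicate 3 and after thinning. Of 10 goblet cell genes 7 passed, and 3 were called lower: Spink4 (106, 94.2 and 85.2 against 39.6, 24.1 and 31.7 CPM), Zg16 (-3.14) and Fcgbp (-1.71), the last with 1 ENR library at 23.2 CPM and a sign that turned in cells with both an Lgr5 and an Ascl2 UMI (0.05). Fcgbp also lost its call with DESeq2, with equal cells per library and without ENR replicate 2 (-0.42), Hyper replicate 2 or Hyper replicate 3. Annotated goblet cells numbered 107, 147 and 125 in ENR- and 158, 205 and 131 in Hyper-organoids and enteroendocrine cells 72, 79 and 61 and 97, 107 and 86, and their part was not tested. Of the endocrine genes 1 of 8 (Sct, 1.48) and of the tuft cell genes 1 of 3 (Pou2f3, 1.26) were called higher, beside 15.2% of all genes, and Pou2f3 was not called after thinning or with equal cells per library. Leukocyte markers summed to 0.897 to 1.63 CPM in all groups, with Ptprc and Tyrobp at 0, and stromal markers to 0.0784 to 0.413 CPM in ENR- and 0.963 to 1.77 CPM in Hyper-organoids, with Col1a2, Col3a1, Lum and Cdh5 at 0 in all libraries and Col1a1 called higher (0, 0.0827 and 0 against 0.284, 0.567 and 0.374 CPM). Of 16 genes of dissociation stress, 2 were called higher, a share near the 15.2% of all genes, Atf3 (28.8, 23.6 and 16 against 107, 42.1 and 62.4 CPM) and Hspb1 (4.88), and 0 lower. Their part in the other results was not tested.

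Few genes of the stem class were called between -VE- and ENR-organoids. The largest rises by the rule were Gsta4, a glutathione transferase (log2 fold change 1.73, SE 0.269, edgeR adjusted p 0.0175), with 96.8, 79.7 and 78.9 CPM in ENR- and 234 and 330.5 in -VE-organoids, and the galectin Lgals1 (1.72), with 6.97, 5.21 and 6.25 CPM in ENR-, 18 and 22.3 in -VE- and 75.2, 41.5 and 56.7 in Hyper-organoids. Igfbp4, Scarb1 (1.25), Egln3 (1.24), Tinagl1 (1.2) and Phlda2 (1.14) followed. Egln3, an oxygen sensor that marks HIF for degradation, varied little among replicates, with 25.9, 28.9 and 25.6 CPM in ENR-, 63.6 and 63.4 in -VE- and 99.4, 97.4 and 95.9 in Hyper-organoids. The largest falls were Fmo5 (log2 fold change -3.49, SE 0.347, edgeR adjusted p 0.00377), with 17, 21.7 and 22.8 CPM in ENR-, 2.54 and 1.14 in -VE- and 1.44, 2.27 and 2.46 in Hyper-organoids, the sulfotransferases Sult1d1 (-2.02) and Sult1b1 (-1.57), Aoc1 (-1.94), Id3, the retinal reductase Dhrs3 (-1.53), Klhl24 (-1.37) and Mxd4 (-1.35). Fmo5 and Dhrs3 were also low in Hyper-organoids, with log2 fold changes between Hyper and -VE of 0.17 and 0.34 (edgeR adjusted p 0.708 and 0.213). Of the 19 single-gene results of this comparison, 5 held under all alternatives, and the other 14 lost the call without ENR replicate 1.

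The change from ENR to Hyper differed between SC and TA past the 2-fold limit for 167 of 14704 genes (1.14%), 99 of them with the higher change in SC and 68 with the lower. Of the 28 stem cell genes, 22 had the lower change in SC, 2 of them past the limit, and of the 4 enterocyte progenitor genes 2 had the higher change in SC past the limit. Fabp1, a fatty acid binding protein of absorptive cells, had 29.3, 39.5 and 44.3 CPM in ENR and 31.6, 74.5 and 219.8 CPM in Hyper stem cells, and 54.2, 81.9 and 86.5 and 17.6, 50.5 and 55.1 CPM in TA cells. The difference of its changes was 2.14, SE 0.257, edgeR adjusted p 1.09e-05, and the change within SC alone was not called (1.5, edgeR adjusted p 0.0753). Gsta1 (1.68), Adh6a (1.39), Depdc1a (1.3), S100a6 (1.3) and Hmmr (1.26) also changed more in SC. Hmmr and Depdc1a, genes of mitosis, stood at 6.94 and 0.645 CPM in ENR stem cells and 94.8 and 13.6 CPM in ENR TA cells. H2afy2 (-2.15), Cmtm8 (-1.64), Tnfrsf19 (-1.58, SE 0.316, edgeR adjusted p 0.00174), Bex2 (-1.3), Cxxc5 (-1.26) and Cdc45 changed less in SC than in TA. For Tnfrsf19 the level in ENR-organoids was 1.14 CPM in SC and 0.351 CPM in TA, and in Hyper-organoids 20.7 and 20.0 CPM. With goblet cells in place of TA, the differences of Cmtm8 (1.51), Bex2 (0.07) and Cxxc5 (0.91) turned sign, and those of H2afy2, Tnfrsf19, Depdc1a and Cdc45 were no longer called. The calls were also lost with equal cells of both classes for H2afy2, Bex2 and Cxxc5. Leaving out a library ended that of Bex2 (any 1 ENR library), H2afy2 (ENR replicate 1 or 3 or Hyper replicate 2), S100a6 (ENR replicate 1 or 3 or Hyper replicate 3), Depdc1a (ENR replicate 1 or 2), and Tnfrsf19 and Cxxc5 (ENR replicate 2).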

How the data were processed

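Single cells of intestinal organoids were captured with 10x 3′ v3 chemistry. The authors processed the reads with Cell Ranger 3.0.0 against mm10, merged, filtered and clustered the cells with Seurat 3.1.4 after normalization with Scater, and deposited UMI counts per gene and cell with a table of annotated classes. The deposited counts are raw. The methods name a minimum of 1500 genes per cell, while the files keep annotated stem cells from 604 genes on, and leaving those out was an alternative. How the authors treated doublets is not given in the sources used here, and none were removed here except, as an alternative, the 5% of stem cells with the most UMIs. All columns of per-sample values were mapped to samples.

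Counts of SC cells were summed per library and tested with edgeR 4.0.16 (quasi-likelihood F test, TMM, filterByExpr, R 4.3.3), with the 3 media in 1 fit and Benjamini-Hochberg adjustment over all genes tested. A gene was called at an adjusted p under 0.05 and an absolute log2 fold change of at least 1. The difference of changes between SC and TA used sums of both classes with library as a block. Shares were taken after each cell was thinned to 10000 UMIs. Gene lists are described by their counts and medians beside all genes. Members and lists were chosen with earlier results of these data known. Named genes were the stem cell and repair genes, the 8 largest rises and falls per comparison among called genes with at least 20 CPM and no overlap of libraries, the 6 largest in each direction between SC and TA, and up to 4 called genes per list. Further list members and the X chromosome stretch were named after their values were seen. Gene coordinates are those of GENCODE vM21 and promoter windows those of RefSeq. Of the genes tested, 75.7% have such a window, below the 80% needed, so a comparison of promoters between gene sets is void. DESeq2 1.42.0, other filters, scalings and cell sets, a block for culture series and leaving out each library were alternatives. The scripts were tested on simulated data. Some members of the lists are not reported here.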

Additional observations from a re-analysis of the deposited data

Results flagged for a closer look

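The change from ENR- to Hyper-organoids differed between the stem class and TA cells for 167 genes, by the test of the difference itself with library as a block. The 6 with the higher change in SC by the rule for named genes were Fabp1, with a difference of 2.14 on the log2 scale, Gsta1 with 1.68, Adh6a with 1.39, Depdc1a with 1.3, S100a6 with 1.3 and Hmmr with 1.26. Of these, Gsta1 (a glutathione transferase) stood at 34.6, 29.4 and 22.2 CPM in ENR and 26.5, 101 and 185 CPM in Hyper stem cells, and at 29.3, 30.3 and 21.8 and 6.62, 37.9 and 45.6 CPM in TA cells. In Hyper replicate 1 it lay within the ENR range in SC and below that range in TA. The calcium-binding protein S100a6 had ENR and Hyper means of 8.01 and 87.6 CPM in SC and of 15 and 56 CPM in TA. Single Hyper libraries stood at 23.5, 46.8 and 193 CPM in SC and at 15, 49.3 and 104 CPM in TA. In TA, Hyper replicate 1 lay within the ENR range of 10.5 to 19.6 CPM. The -VE libraries held 19 and 80 CPM in SC, and their mean in TA (79.4 CPM) was above the Hyper mean.

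The 6 with the lower change in SC were H2afy2 with a difference of -2.15, Cmtm8 with -1.64, Tnfrsf19 with -1.58, Bex2 with -1.3, Cxxc5 with -1.26 and Cdc45 with -1.18. H2afy2 stood at 0.254 and 21.7 CPM in SC and at 0.0563 and 22.6 CPM in TA of ENR- and Hyper-organoids, so that its difference rests on ENR levels near 0. Cxxc5, a zinc finger protein that dampens Wnt signalling, stood at 1.15 and 20.0 CPM in SC and at 0.523 and 21.1 CPM in TA.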

How the results depend on the processing

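Of the single-gene results, 109 of 131 for Hyper against ENR, 75 of 96 for Hyper against -VE, 5 of 19 for -VE against ENR and 4 of 12 for SC against TA kept direction and call under all alternatives run. The cause of the changes below was not tested, except that a higher minimum level or thinning leaves fewer genes to test. With at least 10 CPM in 2 libraries, 627, 504 and 41 genes were called in Hyper against ENR, Hyper against -VE and -VE against ENR. After thinning to 10000 UMIs, 1667 and 1526 genes were called in the first and the second. In -VE against ENR, DESeq2 called 154 genes and the fit with no filter 183, and leaving out a library gave 8 to 149. The no-filter fit shifted the median of all genes to 0.19 in Hyper against ENR. The culture series number was not treated as pairing the libraries, since the labels do not say what it marks and not every correlation was above 0.1: deviations correlated at 0.0923, 0.0764 and 0.285 over 13920 genes for the ENR and Hyper libraries of a series, at 0.0589 and -0.0382 for ENR and -VE, and at 0.225 and 0.154 for -VE and Hyper. With it as a replicate block, 2576, 2350 and 140 genes were called, and the median of the repair genes in Hyper against -VE was 2.99.

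Medians of lists moved as follows, in log2 units. With at least 10 CPM, the S phase genes were at -0.50 in Hyper against ENR and -0.51 against -VE, the mitosis genes at 0.32 and -0.20 and the YAP targets at 2.41 and 1.95. Leaving out a library gave -0.69 to -0.54 for the S phase genes and -0.60 to -0.18 for the mitosis genes in Hyper against -VE, and 0.31 to 0.58 for the mitosis genes in -VE against ENR. In cells with both an Lgr5 and an Ascl2 UMI, the mitosis genes were at 0.31 in Hyper against ENR and 0.59 in -VE against ENR, and the YAP targets at 2.06 and 0.30. The YAP targets were at 1.51, 0.91 and 0.47 after thinning in the 3 comparisons, at 1.10 and 0.45 with equal cells in the last 2, and at 1.52 to 1.99, 1.06 to 1.57 and 0.18 to 0.56 when a library was left out. The repair genes were at 5.23 to 5.90, 2.94 to 4.61 and -0.51 to 0.96 when a library was left out, the last turning sign without ENR replicate 1, and at -0.0709 after thinning and -0.0776 with equal cells in -VE against ENR.

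Axin2 turned to -0.0555 without Hyper replicate 1 and Fcgbp to 0.0547 in the Lgr5 and Ascl2 cells, both in Hyper against ENR. With goblet cells in place of TA, 494 genes differed from SC in their change, and Cmtm8 was at 1.51, Bex2 at 0.072 and Cxxc5 at 0.91, while leaving out a library gave 102 to 200 genes with TA. The Lgr5 share differed by 8.31 percentage points without thinning. Depth limits genes under about 1 CPM in the ENR libraries, whose stem class held the fewest cells.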
